A study of Mus musculus with 4 samples.

Results

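The genes described here are 8 genes of cholesterol synthesis, Hmgcs1, Idi1, Fdps, Fdft1, Sqle, Lss, Dhcr7 and Srebf2, measured in mouse embryonic fibroblasts (MEFs) that lack cyclin G1 or are labelled as lacking cyclin G2. Every gene probe that the array files list under one of these symbols was taken, which gave 19 of the 41174 gene probes on the array for 8 of its 27745 listed gene names. The first 7 genes encode enzymes of the pathway and the last encodes its main transcriptional regulator, and none is an uptake receptor. MEFs are connective tissue cells grown out from mid-gestation embryos.

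mRNA levels were compared on 4 arrays with 2 dyes each. A culture from Ccng1 knockout mice (CycG1-/-, here G1KO) was set against a culture from CycG1+/+ mice, and a culture labelled CycG2-/- (G2KO) against one labelled CycG2+/+. Each pair was hybridised on 2 arrays with the dyes exchanged, so there was 1 replicate per genotype, no test between genotypes was possible, and the SD given with each value is the technical spread between 2 arrays. The strain is given as C57BL/6J for every culture, although the source names of the G2KO pair read C57BL/7J. All 4 cultures were grown in the same serum-containing medium without treatment and collected during logarithmic growth. In the G1KO mice, all coding exons of Ccng1 had been replaced by a neomycin cassette, per the study's methods.

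Some facts of the whole series bear on every value below. Both Ccng1 probes were far lower in G1KO than in its WT, at log2 ratios of -6.67 and -4.96. The same probes were higher in the RNA labelled G2KO than in its WT, at 2.67 and 2.49. The Ccng2 probe was not reduced in the culture labelled G2KO, at a log2 ratio of 0.28 on the first array and -0.10 on the second, so that in these files the direction of every G2KO ratio rests on the label. The study also describes typing of the embryos, RT-PCR of Ccng2 mRNA in MEFs and a western blot for CycG2 protein in MEFs, which were not analysed here. In both comparisons Xist was higher in the knockout, at 7.54 and 7.24 for its most different probe. The Y-linked Eif2s3y was lower there, at -6.55 and -5.82. The study attributes the higher Xist to both knockout MEF cultures being female. The labels do not give sex, and sex and genotype cannot be told apart in either comparison. All 10 fibroblast markers were well above background in every RNA, but 6 of the 10 were lower by 2-fold or more on both arrays in the RNA labelled G2KO, with a median log2 ratio of -1.36 over the list. The log2 of their summed signal was between 17.5 and 18.0 in that RNA and between 19.1 and 19.3 in its WT, and it was between 18.2 and 18.8 in the G1KO pair. Markers of other cell types differed too. Of 6 mesothelial markers 5 were 2-fold or more lower in G1KO and 1 higher (median -3.65), and the log2 of their summed signal was 14.6 to 14.9 in G1KO against 17.5 to 17.9 in its WT. Of 7 neural and glial markers tested in the RNA labelled G2KO, 4 were 2-fold or more higher (median 3.37), with En2 at 7.02, Foxa2 at 6.10 and Sox2 at 5.59, and the summed signal was 15.6 to 15.7 against 11.5 to 11.7 in its WT. The glial marker Gfap was not well above background in any RNA. The part of these cell-type markers in the values below was not tested.

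Cells make cholesterol from acetyl-CoA through mevalonate. The isoprenoid units made from mevalonate are joined to farnesyl diphosphate and then to squalene, which is oxidised and closed into the first sterol, lanosterol, and trimmed to cholesterol. The transcription factor SREBP-2, encoded by Srebf2, is held in the endoplasmic reticulum when sterols are plentiful and released when they fall short, and it then raises transcription of most genes of the pathway through sterol regulatory elements in their promoters.

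Promoter sequences are given for 3 of the genes: Hmgcs1 and Dhcr7, which lay on opposite sides of 0 in the 2 comparisons, and Idi1, which did not. Any part of SREBP-2 in these ratios was not tested. RefSeq promoter windows on assembly GRCm38.p6, from 250 bases before to 50 bases after an annotated start, were found for 5 of the 8 genes and comprised 7 windows. No window was found for Fdps, Fdft1 and Sqle. Capitals mark the searched motifs on either strand, which were the sterol regulatory element TCACNCCAC, the CCAAT box and the GC box GGGCGG. The windows lie at chr13:119690101-119690400 for Hmgcs1, at chr7:143829964-143830263 for Dhcr7 and at chr13:8885356-8885655 for Idi1, all on the plus strand. Of the 3 Dhcr7 windows, the one with the most motifs is shown.
Hmgcs1: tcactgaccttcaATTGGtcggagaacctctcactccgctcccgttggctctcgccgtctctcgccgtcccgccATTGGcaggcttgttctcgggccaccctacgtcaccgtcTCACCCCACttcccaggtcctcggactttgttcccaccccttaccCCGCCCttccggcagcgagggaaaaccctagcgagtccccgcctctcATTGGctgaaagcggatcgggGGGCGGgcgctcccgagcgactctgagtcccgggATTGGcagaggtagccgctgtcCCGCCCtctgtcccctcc
Dhcr7: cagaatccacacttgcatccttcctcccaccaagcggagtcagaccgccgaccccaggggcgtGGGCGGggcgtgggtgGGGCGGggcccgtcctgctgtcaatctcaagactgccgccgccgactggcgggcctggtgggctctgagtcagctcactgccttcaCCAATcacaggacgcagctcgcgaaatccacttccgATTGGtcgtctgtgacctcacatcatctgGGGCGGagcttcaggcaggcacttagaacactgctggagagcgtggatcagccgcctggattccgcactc
Idi1: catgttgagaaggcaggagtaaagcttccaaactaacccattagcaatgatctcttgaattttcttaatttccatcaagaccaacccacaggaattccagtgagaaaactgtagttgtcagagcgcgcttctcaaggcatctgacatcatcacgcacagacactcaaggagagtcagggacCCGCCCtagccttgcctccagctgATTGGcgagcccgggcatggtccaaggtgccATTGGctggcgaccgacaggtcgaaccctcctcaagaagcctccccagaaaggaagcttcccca

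The Hmgcs1 window held the sterol regulatory element once, as TCACCCCAC on the plus strand at position -137 from the start, together with 4 CCAAT boxes and 3 GC boxes. No other window of the 8 genes held these letters. The Dhcr7 window shown held 2 CCAAT boxes and 3 GC boxes, and the Idi1 window 2 CCAAT boxes and 1 GC box. Of all 32851 RefSeq windows of this length, 1.24% held the sterol regulatory element, 37.4% a CCAAT box and 35.7% a GC box. These motifs do not overlap one another in the windows shown, and a match describes letters and not binding.

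By their brightest probes, 7 of the 8 genes had a mean above that of WT in G1KO, all by less than 2-fold. In the RNA labelled G2KO, 6 had a mean below that of WT, again by less than 2-fold. Lss and Srebf2 count among these 6 through probes designed to cDNA clones. The probes of their RefSeq transcripts lay above 0 there, at 0.09 and 0.20 for Lss and 0.11 and 0.09 for Srebf2. With the brightest probe taken for each gene, the 8 log2 ratios (knockout over WT) had a median of 0.39 in G1KO (0.42 and 0.39 on the 2 arrays), and single genes lay between -0.25 and 0.69. For the RNA labelled G2KO the median was -0.30 (-0.36 and -0.27), and single genes lay between -0.57 and 0.19. Over all 19 probes, dim ones included, the medians were 0.30 and -0.08, so the second depends on which probe stands for a gene. Over all probes tested on the array the medians were -0.00 and -0.01, and the SD between arrays was typically 0.08 in both comparisons.

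None of the 19 probes reached a 2-fold difference on both arrays in either comparison, where 5.79% of all probes tested did so in G1KO (1.99% higher and 3.8% lower) and 6.37% did so (2.31% higher and 4.06% lower) in the RNA labelled G2KO. At 1.5-fold, 2 of the 19 probes were higher in G1KO, both of them for Fdps, beside 5.04% of all probes in that direction, and none was lower, beside 8.05%. No probe passed 1.5-fold in the RNA labelled G2KO, where 14.6% of all probes passed, 6.28% upward and 8.32% downward. The 1.5-fold share over both directions was 13.1% in G1KO. In G1KO, 17 of the 19 probes were above 0 on both arrays and 1 was below, beside 39.8% and 40.8% of all probes. For the RNA labelled G2KO, 11 were below 0 on both arrays and 6 above, beside 42.7% and 40.7% of all probes. Probes of the same gene share their RNA and are no replicates of each other.

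**Figure D1:**
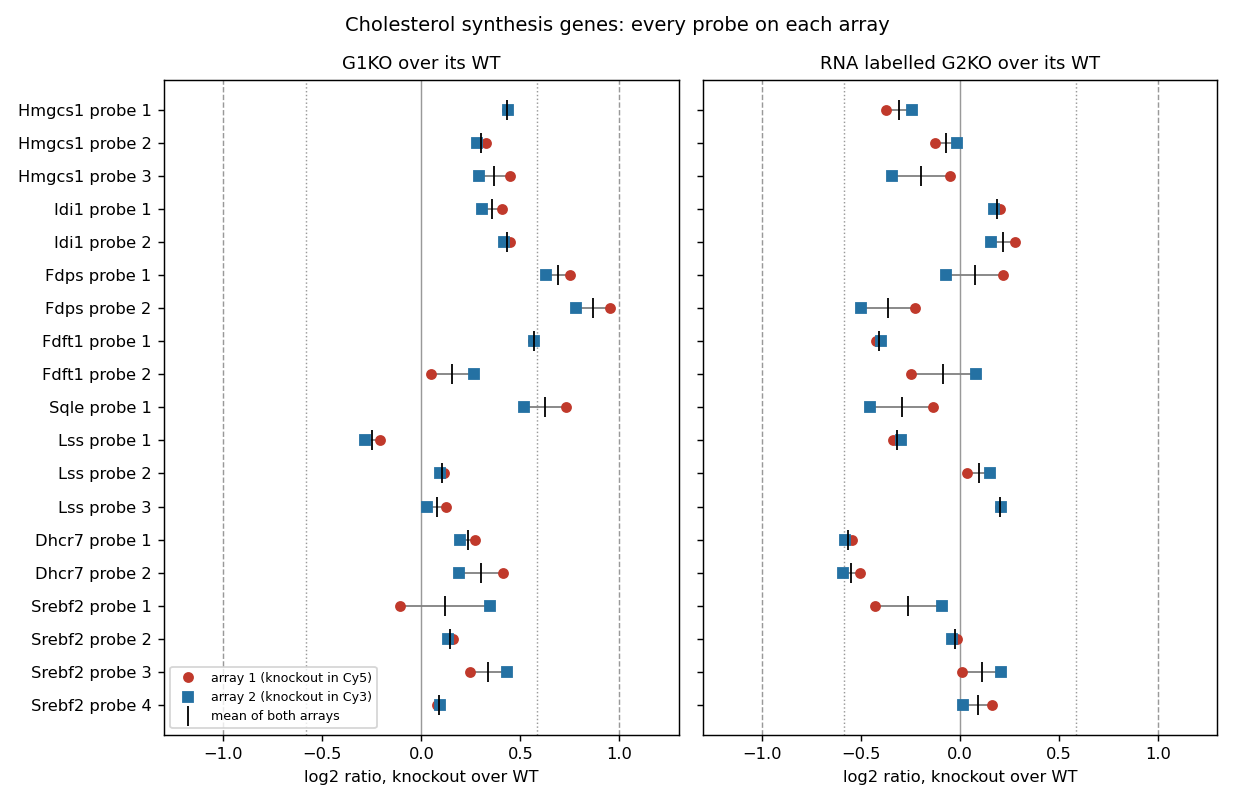
Log2 ratios of knockout over WT for all 19 probes (rows, ordered by pathway step and then by brightness) on the first array (circles) and the second array (squares), with their mean (bars), for G1KO (left) and for the RNA labelled G2KO (right). Dotted lines mark 1.5-fold and dashed lines 2-fold. In G1KO only the first Lss probe lies below 0 on both arrays and both Fdps probes lie past 1.5-fold, while on the right no probe lies past 1.5-fold on both arrays.

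Hmgcs1, the cytosolic HMG-CoA synthase that supplies the mevalonate branch, had log2 ratios of 0.43 and 0.44 on the 2 arrays of its brightest probe (array design build mm8, chr13_random:114807-114866), a mean of 0.43 ± 0.00 (SD, n = 2 arrays) or 1.35-fold. Its other probes gave means of 0.30 and 0.37, so all 3 agreed in direction and nearly in size. The same probe read -0.37 and -0.24 in the RNA labelled G2KO, a mean of -0.31 ± 0.09 or 1.24-fold lower. The other probes gave -0.07 and -0.20 there, and all 6 readings of Hmgcs1 lay below 0.

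Idi1, the isomerase that interconverts the 5-carbon isoprenoid units, was above 0 in both comparisons. Its brightest probe read 0.41 and 0.30 in G1KO (mean 0.36 ± 0.07) against 0.20 and 0.17 in the RNA labelled G2KO (mean 0.19 ± 0.02). The second probe gave means of 0.43 and 0.22, again above 0 on every array. For the brightest probe this was 1.28-fold and 1.14-fold, and no other member had every probe above 0 on every array. Both Idi1 probes are listed under an accession that the array design places on chromosome 2 of mm8 (53516550 to 53516609 for the brightest), whereas RefSeq places Idi1 on chromosome 13, so the identity of these probes rests on the symbol in the files.

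Fdps, the synthase of farnesyl diphosphate, gave the highest ratios in G1KO. The brightest probe (mm8 chr3:89180817-89180957) read 0.75 and 0.63, a mean of 0.69 ± 0.08 or 1.61-fold, and lay at the 95.5th percentile of all probes tested. Its second probe read 0.95 and 0.78, a mean of 0.87 ± 0.12 or 1.82-fold, the highest of the 19. With median centring in place of loess the means were 0.73 and 0.92 but the arrays parted (1.63 and -0.18 for the brightest, 1.56 and 0.28 for the other), so neither passed 1.5-fold on both. The same probes parted in the RNA labelled G2KO. There the brightest read 0.22 on the first array and -0.07 on the second, a mean no larger than the spread between the arrays (0.07 ± 0.20), and the other read -0.23 and -0.50.

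Fdft1, the squalene synthase that commits farnesyl diphosphate to sterols, had ratios of opposite sign in the 2 comparisons. Its brightest probe (mm8 chr14:62101042-62105282) read 0.56 and 0.57 in G1KO, a mean of 0.57 ± 0.00 or 1.48-fold. The readings were -0.42 and -0.40 in the RNA labelled G2KO, a mean of -0.41 ± 0.02 or 1.33-fold lower. Both differences were far larger than the spread between arrays. The ratios of the 2 comparisons were 0.98 apart as labelled and 0.16 apart with the sign of the second turned. For Fdps the same distances were 0.62 and 0.76, so which gene differed most depends on the label. A second, much dimmer probe gave 0.16 ± 0.15 and -0.08 ± 0.23, within or near that spread.

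Sqle, the squalene epoxidase that opens the oxygen-dependent part of the pathway, had a single probe (mm8 chr15:59160510-59160569). It read 0.73 and 0.52 in G1KO, a mean of 0.62 ± 0.15 or 1.54-fold, and one array missed the 1.5-fold threshold. In the RNA labelled G2KO it read -0.13 and -0.46 (mean -0.30 ± 0.23), below 0 on both arrays but with arrays that differed about as much as the mean itself.

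Lss, the lanosterol synthase that closes the sterol ring, was the member whose probes disagreed in both comparisons. The brightest, designed to a cDNA clone (mm8 chr10:76000484-76000543), read -0.21 and -0.29 in G1KO, then -0.34 and -0.30 in the RNA labelled G2KO, with means of -0.25 ± 0.05 and -0.32 ± 0.03. Both probes of its RefSeq transcript lay above 0 instead, with means of 0.10 and 0.08 in G1KO, then 0.09 and 0.20 in the RNA labelled G2KO. No direction can be given for Lss as a gene.

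Dhcr7 reduces 7-dehydrocholesterol to cholesterol in the last step. Its brightest probe (mm8 chr7:143657738-143657797) read 0.27 and 0.20 in G1KO, a mean of 0.23 ± 0.05 or 1.18-fold, and the second probe gave 0.30 ± 0.16. Against its WT, the RNA labelled G2KO gave -0.55 and -0.58 with the brightest probe, a mean of -0.57 ± 0.03 or 1.48-fold lower, at the 10.1th percentile of all probes tested. The second probe gave nearly the same value, -0.55 ± 0.06. Dhcr7 was therefore the lowest member in the RNA labelled G2KO, and its 4 readings there lay between -0.50 and -0.59.

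With the brightest probe taken for each gene, the regulator Srebf2 had the mean nearest to 0 in G1KO. Its brightest probe (mm8 chr15:82032520-82032579) read -0.11 and 0.35 in G1KO (mean 0.12 ± 0.32) against -0.43 and -0.09 in the RNA labelled G2KO (mean -0.26 ± 0.24), so that the arrays of a pair differed by more than the mean. The other 3 probes gave means of 0.09 to 0.34 in G1KO, above 0 on every array, and of -0.03 to 0.11 in the RNA labelled G2KO. Its 4 probes did not share a direction in the RNA labelled G2KO. The mRNA level says nothing of how much SREBP-2 protein was released.

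The signals of each RNA, after normalisation between arrays, showed how the 4 cultures were ordered. By the brightest probe, the WT of the G1KO pair had the lowest level for 7 of the 8 genes, all but Lss. It was lowest for 17 of the 19 probes, among them both RefSeq probes of Lss. The WT of the G2KO pair had the highest level for 6 of the 8 genes and 11 of the 19 probes. No share over all probes is given for these orders, so they cannot be set against the whole array. For the brightest probes of Idi1 and Fdps the RNA labelled G2KO was highest. The 2 WT cultures thus stood at opposite ends, with both knockout RNAs between them for Hmgcs1, Fdft1, Sqle, Dhcr7 and Srebf2.

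Log2 levels of the brightest Fdft1 probe show the WT cultures at opposite ends. They were 12.10 and 12.14 in the WT of the G1KO pair, 12.66 and 12.71 in G1KO, then 12.68 and 12.70 in the RNA labelled G2KO, and 13.11 and 13.10 in the WT of the G2KO pair. The 2 knockout RNAs overlapped, and each WT lay apart from them by far more than the spread between arrays. Dhcr7 ran in the same order with no overlap, from 11.47 and 11.58 through 11.74 and 11.78, then 12.19 and 12.18, to 12.74 and 12.77. Fdps fell into a low and a high pair of cultures instead, at 12.91 and 12.93 in the WT of the G1KO pair and 13.66 and 13.56 in G1KO, against 14.61 and 14.49 in the RNA labelled G2KO and 14.39 and 14.56 in its WT. The last 2 RNAs overlapped. The brightest Srebf2 probe had overlapping readings between neighbours except at the top, where the WT of the G2KO pair read 14.73 and 14.49.

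**Figure D2:**
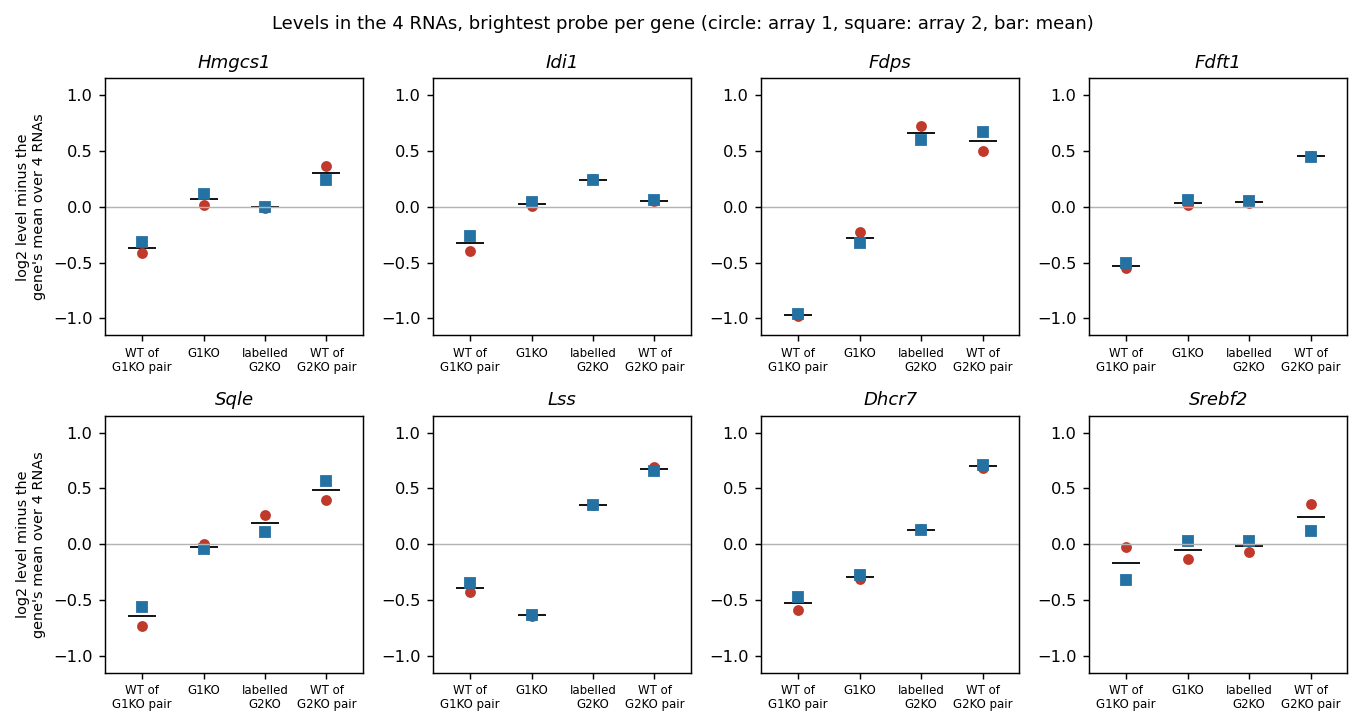
Log2 level of each gene in the 4 RNAs, minus the mean of that gene over the 4 RNAs, for the brightest probe, with the first array as circles, the second as squares and their mean as a bar. The WT of the G1KO pair is lowest in every panel but Lss, and the WT of the G2KO pair is highest in every panel but Idi1 and Fdps.

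In the median, the difference between the WT cultures was larger than that of either knockout from its own WT. The WT of the G2KO pair was above the WT of the G1KO pair for 8 of the 8 genes with both dyes, by a median of 1.02 on the log2 scale and between 0.38 (Idi1) and 1.55 (Fdps). Over all probes the median difference was 0.03 and 48.3% were above 0 with both dyes. By the brightest probe, Fdps, Sqle, Lss and Dhcr7, 4 of the 8, were 2-fold or more higher with both dyes. So were 5 of the 19 probes, beside 5.63% of all 23832 probes. Fdft1 read 1.01 and 0.96 and so missed that threshold on 1 array. The RefSeq probes of Lss fell short of it, at mean levels of 10.35 against 9.75 and 9.01 against 8.53. The second Dhcr7 probe also fell short, at 8.265 against 7.276 on the first array. The same WT cultures differed in markers of other cell types. The log2 of the summed signal was 17.5 to 17.9 in the WT of the G1KO pair against 10.7 to 10.8 in the WT of the G2KO pair for mesothelial markers, and 15.4 to 15.5 against 8.9 for epithelial markers. In the WT of the G1KO pair, Krt18 (14.96) and Krt14 (13.75) stood highest of the epithelial list. Krt8 (8.33), Cdh1 (7.19) and Krt5 (6.41) were far lower there, and Epcam was not well above background. The part of these markers in the difference was not tested. If the labels of the second pair were exchanged, its WT and knockout values would change places.

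Between the 2 knockout RNAs the differences were smaller for each gene by its brightest probe. The RNA labelled G2KO was above G1KO by a median of 0.21, from -0.07 (Hmgcs1) to 0.94 (Fdps) and 0.99 (Lss). Of the 8, 6 were above 0 with both dyes and none was at 2-fold, beside 50.2% and 3.9% of all probes. The RefSeq probes of Lss lay closer together, at mean levels of 10.44 against 9.85 and 9.21 against 8.61. Fdft1 differed by 0.00 ± 0.02 between the knockout RNAs but by 0.98 ± 0.04 between the WT RNAs. Sqle differed by 0.21 ± 0.08 and 1.13 ± 0.01. These levels come from different arrays, and the size of the WT difference depended on how probes and arrays were combined, at 0.66 with all probes of a gene averaged and 0.83 without normalisation between arrays. With 1 culture per genotype, a difference between genotypes and one between cultures cannot be told apart.

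**Figure D3:**
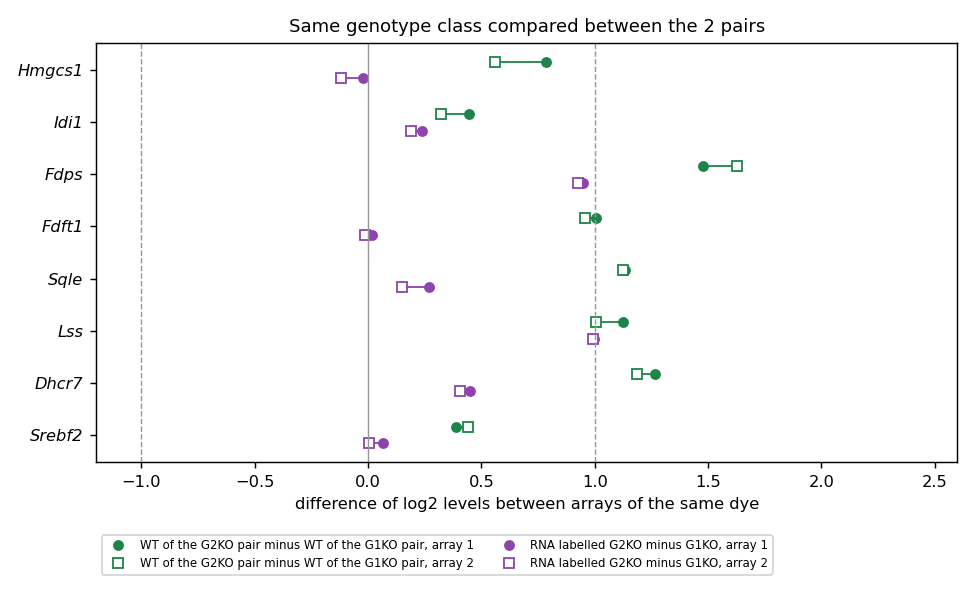
Difference of log2 levels between the G2KO pair and the G1KO pair for each gene's brightest probe, WT against WT (green) and knockout against knockout (purple), for the first array (filled circles) and the second (open squares). Dashed lines mark 2-fold. Every green value lies to the right of the purple values of its gene, and Fdps, Sqle, Lss and Dhcr7 lie past 2-fold with both dyes in the WT comparison.

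The other enzymes of the route had values like those of the 7 member enzymes. Of the 12 further enzymes from acetyl-CoA to cholesterol, 9 were above 0 on both arrays in G1KO and 1 below, with a median of 0.37, and 2 were above and 9 below in the RNA labelled G2KO, with a median of -0.26. Over all 19 enzymes, each by its brightest probe, 15 were above 0 on both arrays in G1KO and 2 below. In the RNA labelled G2KO, 3 were above and 14 below, Lss among the latter. Pmvk, the phosphomevalonate kinase, was the only further enzyme past 1.5-fold in G1KO, at 0.71 and 0.72. It read -0.15 and -0.01 in the RNA labelled G2KO.

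For the RNA labelled G2KO, 2 enzymes stood out in opposite directions. Mvd, which decarboxylates mevalonate diphosphate, read -1.11 and -0.90, past 1.5-fold but short of 2-fold on 1 array. Tm7sf2, a sterol reductase of the later pathway, read 1.16 on both arrays and was the 1 enzyme of the 19 that was called at 2-fold, beside 2.31% of all probes higher at 2-fold in that comparison. With median centring its mean was 1.27 but the second array read 0.53, and the call was lost. Cyp51 and Msmo1, which act after lanosterol, read -0.43 ± 0.08 and -0.44 ± 0.14 there. In G1KO Cyp51 read 0.48 ± 0.09, while Msmo1 read 0.01 ± 0.06. Between the WT cultures all 12 were higher in the G2KO pair with both dyes, 8 of them by 2-fold or more, with a median of 1.13. Housekeeping genes had a median of 0.06 in the same comparison, with none of 7 at 2-fold.

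Genes that control SREBP did not share a direction. The 8 listed had medians of 0.10 in G1KO against 0.03 in the RNA labelled G2KO. Insig1, which retains the SREBP escort protein in the endoplasmic reticulum and is itself a target of SREBP, was above 0 in both, at 0.50 ± 0.09 and 0.38 ± 0.03. Mbtps1, the first protease that releases SREBP, read -0.80 and -0.67 in the RNA labelled G2KO and was the 1 gene of the list past 1.5-fold, but not with its tested probes averaged (-0.56 and -0.42). In G1KO it read -0.02 and 0.35. Insig2, the paralogue of Insig1, read -0.64 ± 0.32 in the RNA labelled G2KO. Srebf1, which encodes the related factor SREBP-1, was at 0.07 ± 0.15 and 0.18 ± 0.15, about as large as the spread between arrays.

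Genes of lipoprotein uptake and of sterol transport were mixed as well, with medians of 0.12 and -0.15 over 8 genes. Scarb1, the receptor for high-density lipoprotein, read 1.04 and 0.97 in G1KO against -0.84 and -0.88 in the RNA labelled G2KO, past 1.5-fold in opposite directions. Vldlr, a receptor for very low-density lipoprotein, read 0.56 and 0.50 in G1KO against 1.06 and 1.12 in the RNA labelled G2KO, where it was called at 2-fold. That call was lost with its tested probes averaged (0.98 on both arrays) and with median centring (1.89 and 0.50). Lipa, the lysosomal lipase that frees cholesterol from its esters, was below 0 in both, at -0.53 ± 0.05 and -0.44 ± 0.03.

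Of 8 genes of sterol efflux and storage, 6 passed the filter on dim probes in each comparison, and the largest values of the neighbouring lists lay here. Abca1, the transporter that exports cholesterol, was lower in both knockouts, by 4.02-fold in G1KO (-1.91 and -2.11) and by 2.75-fold in the RNA labelled G2KO (-1.33 and -1.59). Ch25h, which makes 25-hydroxycholesterol, was 3.89-fold higher in G1KO (1.93 and 1.99) and read -0.49 and -0.51 in the RNA labelled G2KO. Mylip, a ubiquitin ligase for lipoprotein receptors, read 1.01 and 0.79 in G1KO against -1.02 and -1.10 in the RNA labelled G2KO. With median centring the arrays of the RNA labelled G2KO parted for both genes, to -0.92 and -1.98 for Abca1 and -0.26 and -1.67 for Mylip, and both calls were lost there. Mylip also lost its call there with its tested probes averaged (-0.55 and -0.59). In G1KO Mylip read 1.61 and 0.30 with median centring, so it no longer passed 1.5-fold on both arrays. Abca1 and Mylip are both known targets of the sterol-sensing LXR receptors. They lay in opposite directions in G1KO and were both lower in the RNA labelled G2KO. Any part of LXR in these values was not tested.

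Fatty acid synthesis, which SREBP-1 serves, had medians near those of the cholesterol genes, 0.35 in G1KO against -0.22 in the RNA labelled G2KO over 10 genes. Elovl6, a fatty acid elongase, was 2.51-fold higher in G1KO (1.20 and 1.46) and was called, though not with median centring (mean 1.36, but 0.72 on the second array), and it read -0.73 and -0.32 in the RNA labelled G2KO. Fasn, the fatty acid synthase, and the desaturase Scd2 passed 1.5-fold in G1KO, at 0.71 ± 0.10 and 0.81 ± 0.18. With all its probes averaged, Fasn read 0.63 and 0.44 and no longer passed. Fads2, a desaturase of polyunsaturated fatty acids, ran the other way at -1.06 and -0.94. The desaturase Scd1 and the malic enzyme Me1 were the lowest of the list in the RNA labelled G2KO, at -0.63 ± 0.10 and -0.61 ± 0.07. The 7 genes tested of the isoprenoid branches that leave the pathway at farnesyl diphosphate or nearby had medians of -0.18 in G1KO against 0.19 in the RNA labelled G2KO, opposite in sign to the sterol enzymes. Fntb, a farnesyltransferase subunit, was the 1 gene past 1.5-fold there, at 0.79 ± 0.19 in the RNA labelled G2KO (0.48 with its tested probes averaged), followed by Pdss1, which makes the side chain of ubiquinone, at 0.44 ± 0.01. Ggps1, the geranylgeranyl diphosphate synthase, and Fnta, the partner of Fntb, had the largest values of the list in G1KO, at -0.20 ± 0.23 and -0.20 ± 0.04.

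**Figure D4:**
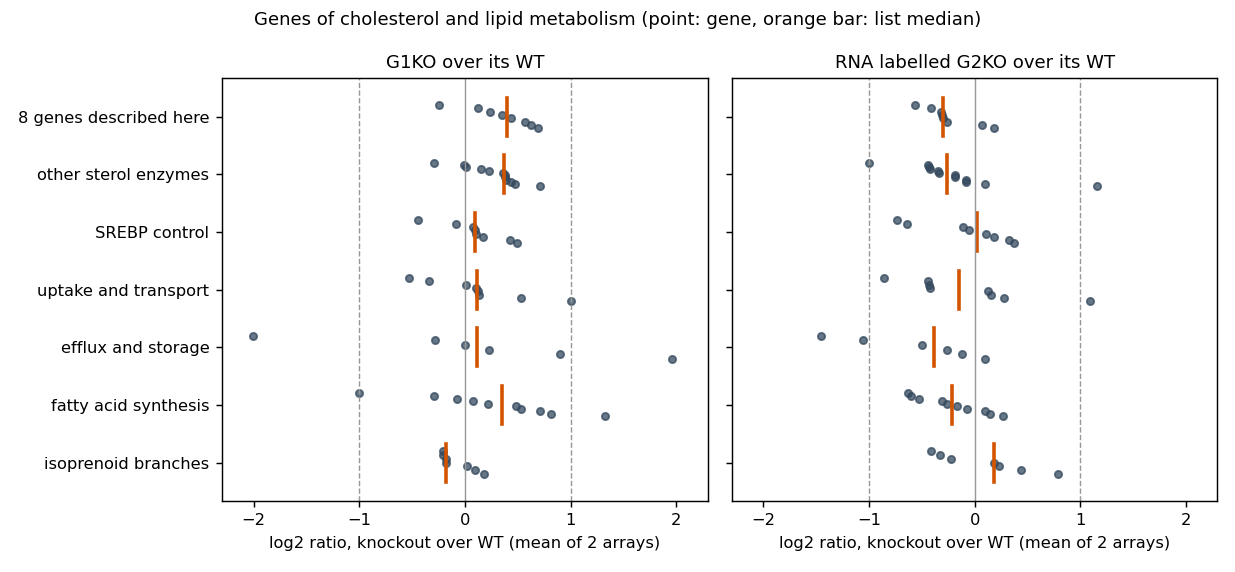
Log2 ratios of knockout over WT (mean of 2 arrays) for the 8 genes and 6 lists of related genes, for G1KO (left) and for the RNA labelled G2KO (right), with 1 point per gene and an orange bar at each list's median. Dashed lines mark 2-fold. The sterol enzymes and fatty acid synthesis have medians above 0 on the left and below 0 on the right, while efflux and storage holds Abca1 at the far left in both panels and Ch25h at the far right in G1KO.

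Proliferation genes were measured beside these lists, since growing cells use sterols for membranes. In G1KO the median log2 ratio was 0.23 over 9 S-phase genes and 0.01 over 10 G2/M genes. In the RNA labelled G2KO it was 0.37 over 10 S-phase genes and 0.58 over 10 G2/M genes, of which 4 passed 1.5-fold upward. The mitotic kinase Aurkb (1.31 ± 0.01) and the replication helicase subunit Mcm2 (1.07 ± 0.01) were called at 2-fold there. With median centring both read below 1 on the second array (0.72 and 0.42). The next largest of their lists were the spindle checkpoint kinase Bub1 (0.89 ± 0.06) for G2/M and the ribonucleotide reductase subunit Rrm2 (0.73 ± 0.08) for S phase. The largest values in G1KO were 0.59 ± 0.15 for Rrm2 and -0.54 ± 0.18 for Rrm1 among the S-phase genes, and 0.46 ± 0.04 for Ccna2 and -0.38 ± 0.08 for Cdk1 among the G2/M genes. Among 8 housekeeping genes, Ywhaz (1.29 ± 0.24) was called and Gapdh read 0.71 ± 0.06 in the RNA labelled G2KO, where the median of these genes was 0.18, while Tbp (0.26 ± 0.22) and Actb (0.21 ± 0.03) were the largest in G1KO, where the median was 0.08. For the RNA labelled G2KO the brightest probes of the 8 cholesterol synthesis genes had a median of -0.30, with 6 below 0 on both arrays. Over all 19 probes of these genes the median was -0.08. Any part of proliferation in these values was not tested.

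The genes whose levels over the 4 RNAs ran closest to the median of the 8 were Zfp12, Lrig2, Tnrc6b, Raly and Agap3, at distances of 0.0688 to 0.0859 on the log2 scale after centring, where the median distance of all 19571 probes searched was 0.76. With only 4 RNAs such likeness is a description of 4 values. Among the 8 genes themselves, Fdft1 (0.158) and Sqle (0.19) ran closest to that median and Fdps (0.761) and Lss (0.67) farthest from it.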

How the data were processed

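Labelled cRNA made from total RNA was hybridised to mouse whole-genome arrays (Agilent). Spots were quantified by the authors in Feature Extraction, whose version is 10.5.1.1 in the file headers and 9.1 in the submitters' processing notes. The deposited intensity values are the mean brightness of each spot and the local background in both channels, on a linear scale and not normalised. The deposited log10 ratio of the scanner software, and the authors' series table of log10 ratios, were used only as alternatives and are 1 ratio turned in sign.

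In limma 3.58.1 (R 4.3.3), background was corrected by normexp (offset 50, all spots), control and outlier spots were left out, log2 ratios were normalised by loess within each array, spots of a probe were averaged, and ratios were turned to knockout over WT. Levels of single RNAs were taken after Aquantile normalisation between arrays, which assumes like signal distributions. A probe was tested if well above background on both arrays in at least 1 genotype (25541 and 25431 probes). A call needed a log2 ratio of 1 (2-fold) or 0.585 (1.5-fold) in 1 direction on each array. The brightest probe stands for a gene. No p-value is given. Per array, 25366 to 27757 of 43379 gene spots were well above background in a channel and none was saturated, and the number of arrays limits precision. The SD of a list's median was replaced by the median SD of its genes between arrays when alternatives were compared.

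The members and gene lists were chosen with earlier results of these data known. The genes named were the 8 members, each list's calls at 2-fold and its 2 largest log2 ratios per comparison, and the 5 nearest patterns. Msmo1, Srebf1, Lipa, Fasn and Scd2 were added after their values were seen, and a gene that the rule would name is not reported here. Probe positions are those of the array design (mm8), and exons under the probes were not analysed here. Promoters are from RefSeq (GRCm38.p6), whose table also named probes of the lists.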

Additional observations from a re-analysis of the deposited data

Results flagged for a closer look

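By their brightest probes, 4 genes lay above 0 on both G1KO arrays and below 0 on both G2KO arrays. Over all probes tested, 39.8% were above 0 on both arrays in G1KO, and 42.7% below 0 on both in the RNA labelled G2KO. The share meeting both conditions is not given. The second Fdft1 probe did not meet them, at -0.25 and 0.08 in the RNA labelled G2KO. The second Fdps probe did (0.95 and 0.78, then -0.23 and -0.50), as did a dimmer Srebf2 probe (0.16 and 0.13, then -0.01 and -0.04). The log2 ratio in G1KO minus that in the RNA labelled G2KO was 0.74 for Hmgcs1, 0.98 for Fdft1, 0.92 for Sqle and 0.80 for Dhcr7. The difference between the comparisons was not tested, since each has 1 culture per genotype, and its sign in the second comparison rests on the label G2KO. With that sign turned the values would be 0.13, 0.16, 0.33 and -0.33.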

How the results depend on the processing

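No paired analysis was possible because the replicate numbers are the arrays of a dye swap of the same RNAs. The median of the 8 genes stayed above 0 in G1KO (0.37 to 0.43), and it stayed below 0 in the RNA labelled G2KO (-0.36 to -0.16) under every alternative run, and no probe of the 8 genes was called at 2-fold in the RNA labelled G2KO under any. Medians and counts that moved by more than the spread between arrays, or by over 1.5 times, are given next. In each case the cause was not tested.

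With median centring in place of loess, no probe passed 1.5-fold on both arrays in G1KO, although the Fdps means were 0.73 and 0.92, since 1 of the 2 arrays fell below the threshold. The same held for Pmvk, Scarb1, Mylip, Fasn, Scd2 and Fads2 in G1KO. In the RNA labelled G2KO it held for Mvd, Tm7sf2, Scarb1, Vldlr, Mylip, Mbtps1 and Fntb. Calls at 2-fold in the lists went from 1 to 0 in fatty acid synthesis in G1KO, and for the RNA labelled G2KO from 1 to 0 in the other sterol enzymes, 1 to 0 in uptake and transport and 2 to 0 in efflux and storage. The medians in the RNA labelled G2KO were then -0.16 for the 8 genes, -0.062 for uptake and transport and -0.10 for fatty acid synthesis. With the scanner software's log ratio, and to 2 decimals with the series table too, the median over the 19 probes was 0.45 in G1KO against -0.27 in the RNA labelled G2KO, 1 probe was called at 2-fold in G1KO and 1 passed 1.5-fold in the RNA labelled G2KO. The other sterol enzymes were at 0.47 and efflux and storage at 0.59 in G1KO. Efflux and storage was at -0.84 and the isoprenoid branches at 0.28 in the RNA labelled G2KO, and calls in G1KO went from 2 to 4 in efflux and storage and from 0 to 1 in uptake and transport. With a normexp offset of 16, 1 probe passed 1.5-fold in the RNA labelled G2KO, and efflux and storage was at -0.57 there. That list was at -0.46 with no background correction, -0.19 with no filter on dim probes and -0.50 with both genotypes above background. With the tested probes of a gene averaged, fatty acid synthesis was at 0.21 in G1KO and the 8 genes at -0.17 in the RNA labelled G2KO, where calls went from 1 to 0 in uptake and transport and from 2 to 1 in efflux and storage.

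On single arrays, uptake and transport ranged from -0.027 to 0.18 and the isoprenoid branches from -0.14 to -0.040 in G1KO. The isoprenoid branches ranged from 0.060 to 0.22 and the count past 1.5-fold from 0 to 1 in the RNA labelled G2KO. Calls at 2-fold on a single array reached 1 in uptake and transport and 2 in fatty acid synthesis in G1KO, and 2 in the other sterol enzymes in the RNA labelled G2KO. In alternatives chosen after seeing the data, levels without normalisation between arrays gave 0.83 between the WT and 0.033 between the knockout RNAs, and averaged probes gave 0.66 between the WT. Single arrays gave 0.17 and 0.25 between the knockout RNAs. Over the 19 probes, the sign changed in 1 of 171 alternative values in G1KO against 7 of 171 in the RNA labelled G2KO, for probes of Srebf2, Hmgcs1, Fdps and Fdft1.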
